A study of Bubalus bubalis with 6 samples.

Results

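The interleukin 6 family genes examined here were IL6, IL11, LIF, CLCF1, IL6ST, LIFR, OSMR, IL11RA, SOCS3 and STAT3. They were taken from the deposited gene table by symbol, and all 10 are among its 24616 genes. They were selected on their counts in GM against DM samples, with earlier results of these samples known, so their GM and DM values are given as a description and carry no p-value. The samples are muscle stem cells (MuSCs) of the water buffalo (Bubalus bubalis), which the study isolated from fetal longissimus muscle by enzyme digestion and kept as a primary culture. The 3 GM samples were proliferating cells in serum-rich growth medium, and the 3 DM samples were cells moved to low-serum differentiation medium at near confluence, in which myotubes form. No gene was altered in either group, and neither the number of animals nor whether samples were separate cultures is given, so errors describe the spread between samples, which may be technical.

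The cytokines of this family signal through a shared receptor chain, gp130, encoded by IL6ST. IL6 and IL11 bind a receptor subunit of their own and then pair gp130 with itself, whereas LIF pairs gp130 with LIFR, and oncostatin M pairs it with OSMR. The receptor complexes carry JAK kinases, which phosphorylate STAT3, and STAT3 in turn drives SOCS3, an inhibitor that closes the loop. In skeletal muscle, IL6 and LIF are known as myokines, and LIF is known to support myoblast proliferation.

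The mRNAs of IL11, LIF, CLCF1, LIFR and SOCS3 were lower in every DM sample, while those of OSMR, IL11RA and STAT3 were higher. The mean of IL11 was 65.4 ± 8.48 CPM in GM and 1.13 ± 0.106 CPM in DM samples (SD, n = 3 each), and LIF went from 13.8 ± 1.64 to 1.65 ± 0.335 CPM. IL11RA went from 14.5 ± 2.04 to 41.6 ± 1.23 CPM and STAT3 from 155 ± 4.14 to 271 ± 13.0 CPM. CPM are library-scaled counts after TMM normalization, and log2 fold changes are DM over GM from the edgeR fit of all 15576 genes with at least 10 counts in total. The library totals ranged from 35615864 to 40305237 counts per sample. Genes that differed by more than 1 on the log2 scale in either direction, with an adjusted p-value below 0.05, count as called. Of the 10 genes 3 were called, 1 higher and 2 lower in DM samples, where 25.3% of all tested genes were called, and nothing is read from this count because the genes were proposed on the same contrast. The groups stood fully apart for 8 of the 10 genes, as they did for 68.8% of all tested genes. The median log2 fold change was -0.50 over the 10 genes and 0.03 over all tested genes.

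**Figure D1:**
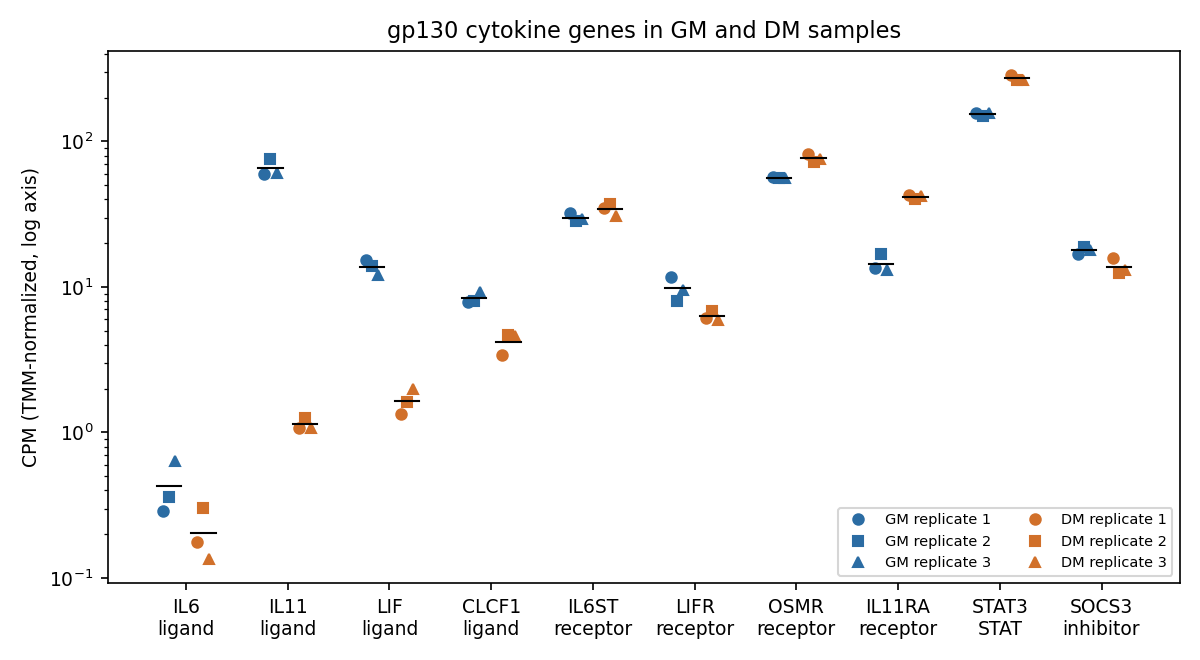
CPM (vertical log axis) of the 10 genes in each of the 3 GM samples (blue) and 3 DM samples (orange), with the replicate shown by the symbol and the group mean by a black bar. IL11 and LIF stand lower in every DM sample, IL11RA and STAT3 stand higher, and the samples of IL6 and IL6ST overlap.

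IL11, a cytokine made by stromal cells and linked to fibrosis and to bone turnover, was the ligand with the widest difference. The gene (ENSBTAG00000047400) lies on chromosome 18 at 62561915 to 62564977, on the plus strand of the cattle annotation listed in the table, whose build is not given. The GM libraries, in replicate order, held 2486, 3128 and 2317 counts, and the DM libraries 36, 46 and 40. The lowest GM sample was far above the highest DM sample, and the mean CPM of GM samples was 57.7-fold that of DM samples. The log2 fold change was -5.84 with a standard error of 0.14. With any 1 sample removed or the fit altered it stayed between -5.94 and -5.73.

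LIF, known for keeping stem cells in an undifferentiated state and for its action on myoblasts, was also lower in every DM sample. Its gene (ENSBTAG00000007424) lies on chromosome 17 at 71413855 to 71418166, on the minus strand. The GM samples held 639, 576 and 460 counts and the DM samples 45, 59 and 74. The groups did not overlap, with GM samples at 8.37-fold the mean CPM of DM samples. The log2 fold change of LIF was -3.06 (standard error 0.18), and the alternatives gave -3.21 to -2.92.

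CLCF1, which signals through the receptor of ciliary neurotrophic factor together with gp130 and LIFR, was lower in DM samples by a smaller amount. Counts of CLCF1 (ENSBTAG00000046110, chromosome 29, 45910397 to 45912701, minus strand) were 329, 332 and 348 in GM samples and 115, 170 and 170 in DM samples. The groups did not overlap, and the mean went from 8.36 ± 0.706 to 4.21 ± 0.702 CPM. The log2 fold change of -0.99 (standard error 0.16) lies just inside the limit of 1, and it ranged from -1.08 to -0.85 over the alternatives. It was past the limit with library size alone, at -1.08, without GM replicate 1 or GM replicate 2, at -1.02 each, without DM replicate 2, at -1.05, and without DM replicate 3, at -1.04.

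IL6, the founding member of the family, had few counts in both groups. GM samples held 12, 15 and 24 counts of IL6 (ENSBTAG00000014921, chromosome 4, 31578311 to 31582667) and DM samples 6, 11 and 5. The highest GM sample was replicate 3, and with this scatter the CPM of the groups came close to each other, at 0.428 ± 0.181 in GM and 0.204 ± 0.0859 in DM samples. By CPM the lowest GM sample, replicate 1, was below DM replicate 2. The log2 fold change was -1.04 with a standard error of 0.53, and it ranged from -1.42 to -0.66 over the alternatives. At these counts a difference in IL6 was not resolved.

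IL6ST, the gp130 chain itself, overlapped between the groups. Its counts were 1327, 1174 and 1108 in GM samples and 1184, 1367 and 1130 in DM samples. The means were 29.8 ± 1.96 CPM in GM and 34.3 ± 3.47 CPM in DM samples, and the log2 fold change of IL6ST was 0.20 (standard error 0.091). The gene is ENSBTAG00000017745 on chromosome 20, 23212633 to 23270316.

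IL11RA, the receptor subunit that binds IL11, moved opposite to its ligand. The GM samples held 561, 700 and 496 counts of IL11RA (ENSBTAG00000014907, chromosome 8, 77361667 to 77368154, plus strand), and the DM samples held 1436, 1472 and 1559. Every DM sample was above every GM sample, by 2.87-fold in mean CPM, and the log2 fold change was 1.52 (standard error 0.100). CCL27, listed 90 bases downstream on the other strand, held 1 to 4 counts in GM and 12 to 16 counts in DM samples. The strand setting of the counting is not stated in the sources used here.

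LIFR and OSMR are neighbours on chromosome 20 and moved in different directions. LIFR, the second chain of the LIF receptor, held 488, 335 and 361 counts in GM samples and 206, 251 and 220 in DM samples. Its mean CPM of 9.78 ± 1.87 in GM and 6.30 ± 0.489 in DM samples gave a log2 fold change of -0.63 (standard error 0.16), with no overlap. OSMR, the chain used by oncostatin M and by interleukin 31, held 2349, 2345 and 2119 counts in GM and 2753, 2646 and 2803 in DM samples. It went from 56.3 ± 0.380 to 76.5 ± 4.65 CPM, or 0.44 ± 0.067 (SE) as a log2 fold change, again with no overlap. The intervals of LIFR (ENSBTAG00000010423, 35917479 to 35966671, plus strand) and OSMR (ENSBTAG00000033107, 35521410 to 35588186, minus strand) are 329293 bases apart.

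STAT3, the transcription factor of the pathway, was the most abundant of the 10 genes in CPM in both groups. Its counts were 6531, 6238 and 5941 in GM samples and 9671, 9609 and 9821 in DM samples. All DM samples were above all GM samples, and the log2 fold change was 0.81 ± 0.061 (SE). SOCS3, the feedback inhibitor, went the other way, with 703, 787 and 676 counts in GM and 533, 458 and 486 in DM samples. Its groups did not overlap either, at 17.9 ± 0.985 and 13.8 ± 1.73 CPM, and the log2 fold change was -0.37 (standard error 0.11). STAT3 (ENSBTAG00000021523, 43056660 to 43132624) and SOCS3 (ENSBTAG00000008441, 54458856 to 54459555) are both on chromosome 19.

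Levels of different genes were compared per length as RPKM, the length-scaled values that the authors deposited. RPKM are scaled by the total counts of each library without the TMM factors that the CPM carry. Those factors were 1.03 to 1.04 in GM and 0.95 to 0.98 in DM samples. In GM samples IL11 stood first at 111 ± 14.1 RPKM, above STAT3 at 36.3 ± 1.05 and SOCS3 at 26.4 ± 1.39. OSMR, CLCF1, IL6ST, IL11RA, LIF, LIFR and IL6 followed in that order, from 15.5 ± 0.125 RPKM for OSMR to 0.407 ± 0.172 for IL6. Neighbours whose samples overlapped were IL6ST with IL11RA and IL11RA with LIF. In DM samples STAT3 came first at 59.5 ± 1.82 RPKM and IL11RA second at 24.4 ± 0.401, while IL11 stood eighth at 1.79 ± 0.197 RPKM. There OSMR overlapped with SOCS3, and LIFR, at 1.85 ± 0.169 RPKM, overlapped with IL11. The gene models differ in length, from 612 bases for IL11 to 4407 for STAT3, and RPKM depends on them.

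**Figure D2:**
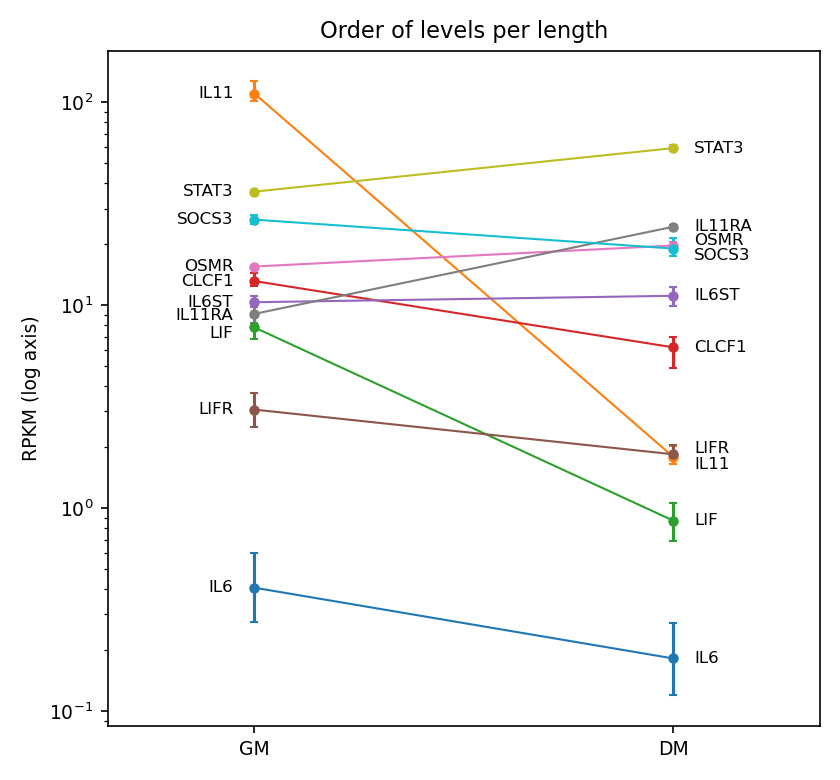
Mean RPKM (vertical log axis) of the 10 genes in GM and DM samples, 3 each, with bars from the lowest to the highest sample and a line joining the means of a gene. IL11 goes from first place in GM samples to eighth in DM samples, and IL11RA from seventh to second.

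The makeup of the ligand mRNAs differed between the groups. The 4 ligands together summed to 132 ± 13.5 RPKM in GM and 9.06 ± 1.44 RPKM in DM samples. IL11 made up 82.5 to 86.0% of that sum in the GM libraries and 17.7 to 22.3% in the DM libraries. CLCF1 made up 10.1 ± 1.52% in GM samples and 68.4 ± 1.92% in DM samples, so it was the leading ligand of the 4 in every DM sample. LIF kept a small share, 5.95 ± 0.988% in GM and 9.60 ± 1.22% in DM samples. For CLCF1, and likewise for LIF, the larger share in DM samples goes with a lower level of the gene itself.

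The 4 receptor genes summed to 38.0 ± 1.16 RPKM in GM and 57.1 ± 0.989 RPKM in DM samples. IL11RA supplied 23.9 ± 3.13% of the receptor sum in GM and 42.7 ± 1.28% in DM samples. OSMR supplied 40.9 ± 0.956% and 34.5 ± 1.29%. Per unit of IL6ST, the level of IL11RA was 0.763, 1.08 and 0.808 in the GM samples and 2.19, 1.94 and 2.49 in the DM samples. LIFR per IL6ST went from 0.294 ± 0.0372 to 0.166 ± 0.00934. IL11 was at 12.2 ± 0.348 times the RPKM of IL11RA in GM samples and at 0.0737 ± 0.00920 times in DM samples. LIF per LIFR went from 2.58 ± 0.446 to 0.474 ± 0.115, and SOCS3 per STAT3 from 0.729 ± 0.0594 to 0.320 ± 0.0244.

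**Figure D3:**
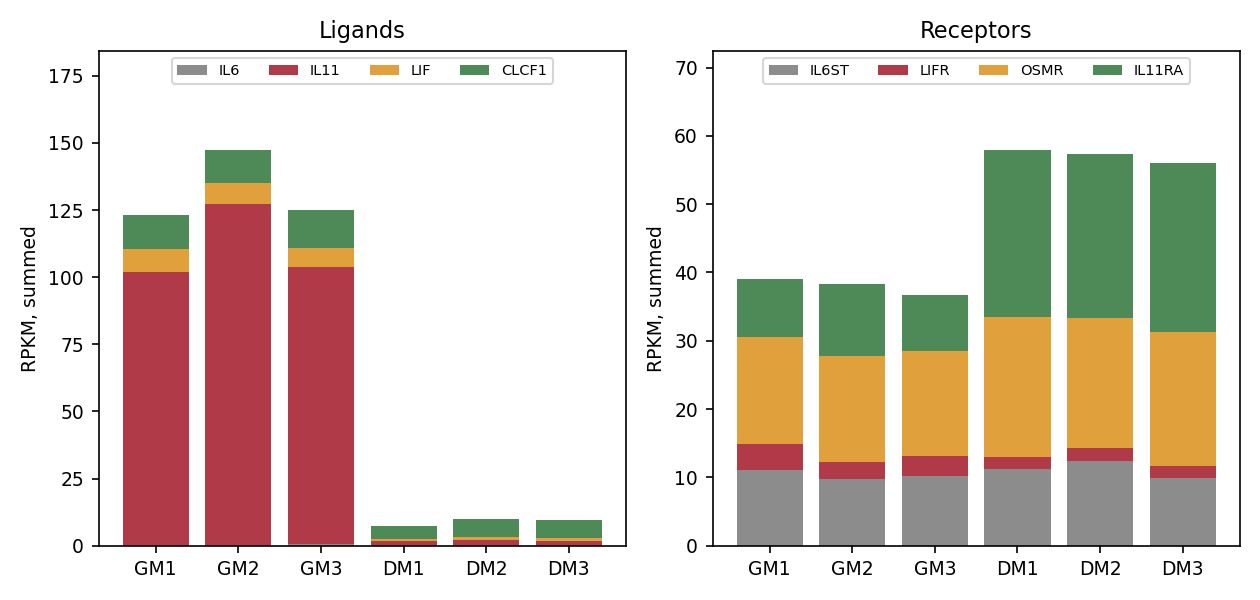
Summed RPKM (vertical axis from 0) of the 4 ligand genes (left) and the 4 receptor genes (right) in each GM and DM sample, stacked by gene. IL11 fills most of the ligand bar in GM samples, CLCF1 most of the small bar in DM samples, and IL11RA widens in the receptor bar of DM samples.

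The transcript table lists a single transcript for 9 of the 10 genes, with the same counts as the gene in each sample. OSMR has 2, ENSBTAT00000061133 of 2931 bases and ENSBTAT00000047019 of 1537 bases. The longer transcript held 75.1 to 77.9% of the gene count in GM and 75.5 to 78.1% in DM samples, and the shorter 38.8 to 42.4% and 36.2 to 39.6%, so some reads were counted for both. Their log2 fold changes were 0.43 (standard error 0.073) and 0.34 (standard error 0.074).

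The listed genes on either side of IL11 were also lower in DM samples. TMEM190, whose interval ends 5731 bases before IL11, held 575, 690 and 541 counts in GM samples and 71, 85 and 47 in DM samples, or -2.97 ± 0.20 (SE) as a log2 fold change. The next gene after IL11, ENSBTAG00000044157, held 7, 8 and 11 counts in GM samples and 1, 0 and 0 in DM samples. OSM, the gene of oncostatin M, lies 16302 bases from LIF and held 1 count over the 6 samples, which was not enough to be tested. None of the 10 genes overlaps another listed gene.

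The genes closest to IL11 and LIF in their pattern were sought among 8060 genes with a symbol and a mean of at least 10 CPM, by the root mean square distance of log2 CPM centred over the 6 samples. SEMA7A, a membrane-anchored semaphorin, lay nearest to IL11 at a distance of 0.42 on the log2 scale, followed by P3H2, a prolyl hydroxylase of collagen, at 0.47 and IGFBP5 at 0.75. IGFBP5, a binding protein of insulin-like growth factors, had 4429, 4696 and 3325 counts in GM and 209, 178 and 146 in DM samples. RRM2, a subunit of ribonucleotide reductase, lay nearest to LIF at 0.11, followed by VEGFC, a growth factor of lymphatic vessels, at 0.16 and HSPB7, a small heat shock protein, at 0.17. These distances rest on the difference between the groups, which many genes share, and describe likeness over 6 samples only.

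Other genes of the pathway were compared as 9 lists, which hold none of the 10 genes and were written from general knowledge. Of 120 genes in these lists 104 were listed, 94 were tested and 28 were called by edgeR with Benjamini-Hochberg adjustment over all tested genes, 15 higher and 13 lower in DM samples. This is 29.8% of those tested, near the 25.3% of all genes. For called genes in each direction the background was 15.0% of tested genes higher and 10.3% lower.

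Among other ligands that use gp130 or its partners, 4 of 7 genes were tested. CTF1, cardiotrophin 1, rose from 16, 21 and 18 counts to 74, 74 and 68 (log2 fold change 2.14, standard error 0.28, edgeR adjusted p = 6.15e-05). IL27 had 27, 23 and 17 counts in GM and 19, 58 and 43 in DM samples, and CNTF at most 4 counts in any sample. IL27 did not pass at an adjusted p of 0.0540, and passed without DM replicate 1, at a log2 fold change of 1.32, and with filterByExpr, at 1.01.

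With no minimum fold change 3 of 5 tested receptor and shedding genes had an edgeR adjusted p under 0.05, all lower in DM samples. Over all tested genes 9813 of 15576 did, 4893 of them lower. Of the 6 further receptor and shedding genes, 5 were tested and 1 was called, also lower. This was CNTFR, a chain of the CLCF1 receptor, which had 44, 29 and 50 counts in GM and 4, 2 and 6 in DM samples (log2 fold change -3.16), and which is named after its values were seen because its mean lay under 1 RPKM. The genes of the sheddases ADAM17 and ADAM10, which release soluble receptors from the cell surface, were at 102 ± 4.54 and 93.6 ± 4.94 CPM in GM samples. They were at 113 ± 13.9 and 75.3 ± 5.78 CPM in DM samples, and neither was called.

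The JAK kinases and other STATs differed by small amounts. For each of the 8 tested genes of 10 the DM samples were all above the GM samples, a separation in that direction that 34.5% of all tested genes showed, and the median log2 fold change was 0.47. STAT2, an interferon-pathway STAT, was the 1 gene called, from 26.3 ± 0.493 to 53.5 ± 0.827 CPM (log2 fold change 1.02, standard error 0.065, edgeR adjusted p = 2.70e-07), and its call was lost with library size alone, at 0.93. JAK1, the main kinase of gp130, went from 149 ± 5.82 to 201 ± 5.89 CPM, 0.43 on the log2 scale. STAT6 had 3173, 3217 and 2893 counts in GM and 4088, 3942 and 4873 in DM samples, a log2 difference of 0.65, and neither passed the limit of 1.

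The inhibitors of the pathway were mostly not called. Of 13 tested SOCS, PIAS and phosphatase genes 1 was called, lower in DM samples, and the median log2 fold change was -0.28. With no minimum fold change 9 had an edgeR adjusted p under 0.05, 8 of them lower and 1 higher in DM samples. Over all tested genes 9813 of 15576 did, 4920 higher and 4893 lower. SOCS2, which dampens growth hormone signaling and is named after its values were seen, passed without DM replicate 1 and without DM replicate 2, at -1.01 each. CISH, a SOCS family inhibitor of STAT5 signaling, fell from 4.32 ± 0.247 to 2.02 ± 0.209 CPM (log2 fold change -1.10, standard error 0.18, edgeR adjusted p = 0.000351). PTPN2, a phosphatase of JAK and STAT proteins, was at 42.6 ± 1.08 CPM in GM and 38.0 ± 0.626 CPM in DM samples, and PIAS3, which binds STAT3, at 74.6 ± 0.231 and 73.1 ± 12.7 CPM. In the arm that runs from gp130 through SHP2 to RAS, 0 of 10 tested genes were called by edgeR, and 0 by DESeq2, while 4 had an unadjusted p-value under 0.05. GAB1, an adaptor of SHP2 at a log2 fold change of 0.98, passed without GM replicate 1, DM replicate 1 or DM replicate 2 and is named after its values were seen. SHC1, an adaptor with the highest mean RPKM among them over the 6 samples, had a log2 fold change of 0.45.

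Genes known to respond to STAT3 split in both directions. Of 26 genes 19 were listed and 16 tested, and 5 rose and 3 fell, with a median log2 fold change of 0.70. IRF1, an interferon response factor, rose from 106, 114 and 107 counts to 978, 918 and 1272 (log2 fold change 3.44, standard error 0.14, edgeR adjusted p = 1.37e-08). CCND1, IER3 and BIRC5 fell, with log2 fold changes of -2.90, -2.68 and -2.65. CCND1 encodes cyclin D1 and BIRC5 the mitotic protein survivin, both tied to the cell cycle, and IER3 is an immediate early gene. The others called were FOS, ICAM1, A2M and FGB, all higher in DM samples and named after their values were seen. FOS had 478, 363 and 516 counts in GM and 1843, 2140 and 1816 in DM samples, while FGB had at most 17 in any sample and lost its call without DM replicate 1, at 1.85 (edgeR adjusted p = 0.0504). TIMP1, an inhibitor of metalloproteinases, went from 559 ± 19.5 to 909 ± 107 CPM and HIF1A, the hypoxia factor, from 277 ± 13.1 to 449 ± 28.7 CPM, both with log2 fold changes of 0.70.

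Other cytokines were also divided, with 2 called higher and 3 called lower among 10 tested of 15. CSF1, the macrophage growth factor, was the most abundant per length of those called. It fell from 12848, 13469 and 12210 counts to 2030, 2114 and 2704 (log2 fold change -2.32, standard error 0.089, edgeR adjusted p = 1.10e-08). IL15 fell too, from 49, 35 and 37 counts to 8, 18 and 11. CCL2, a monocyte chemokine, rose from 7.29 ± 0.650 to 25.1 ± 0.703 CPM, and CXCL8, listed as IL-8, from 0.397 ± 0.0521 to 2.62 ± 1.12 CPM. CXCL12 had 3801, 3750 and 3150 counts in GM and 2939, 2784 and 5036 in DM samples. Its log2 fold change of 0.18 turned to -0.11 without DM replicate 3. TNF and the interleukin 1 genes IL1A and IL1B encode inducers of IL6 family cytokines in many cells. IL1A, named after its values were seen, fell from 42, 21 and 23 counts to 4, 10 and 5 (log2 fold change -1.99, edgeR adjusted p = 0.00570), and TNF and IL1B had at most 1 count in any sample.

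Among 14 tested receptors of other cytokines 2 were called higher and 2 lower in DM samples. Of those called lower, PRLR, the prolactin receptor, is named after its values were seen. PRLR had 29, 12 and 30 counts in GM and 8, 5 and 6 in DM samples. Its call was lost without GM replicate 1, GM replicate 3 or DM replicate 2, with edgeR adjusted p = 0.0572, 0.0659 and 0.0575. GHR, the growth hormone receptor, rose from 320, 250 and 307 counts to 844, 795 and 710 (log2 fold change 1.59), and EPOR, the erythropoietin receptor, from 6.25 ± 0.835 to 14.3 ± 0.639 CPM (1.19). IL1RL1, the receptor of interleukin 33, fell from 609, 514 and 393 counts to 77, 98 and 71 (log2 fold change -2.44, standard error 0.18, edgeR adjusted p = 8.58e-07). IFNGR2 and TNFRSF1A had log2 fold changes of 0.86 and 0.44 and were not called.

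Genes of NF-κB, AP-1 and TGF-β, inputs that are known to induce IL11 and LIF, were called in both directions. Of 14 tested genes 4 were called higher and 2 lower in DM samples. FOSL1, an AP-1 subunit, fell from 2258, 2617 and 2043 counts to 268, 269 and 355 (log2 fold change -2.78, standard error 0.11, edgeR adjusted p = 1.39e-08). TGFB1 fell by 1.47 on the log2 scale, and TGFB2 rose from 39.2 ± 2.93 to 113 ± 9.49 CPM (log2 fold change 1.53). RELB, TNFAIP3 and NFKBIA, with the latter pair being feedback inhibitors of NF-κB, rose with log2 fold changes of 1.84, 1.66 and 1.12. NFKBIA was at 0.95 without DM replicate 3 and no longer called. TGFB1 and NFKBIA, and NFKB1 and RELA below, are named after their values were seen. The subunits NFKB1 and RELA had log2 fold changes of -0.03 and 0.04, and JUN and SMAD2, with the highest mean RPKM over the 6 samples of those not called, -0.53 and 0.43.

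**Figure D4:**
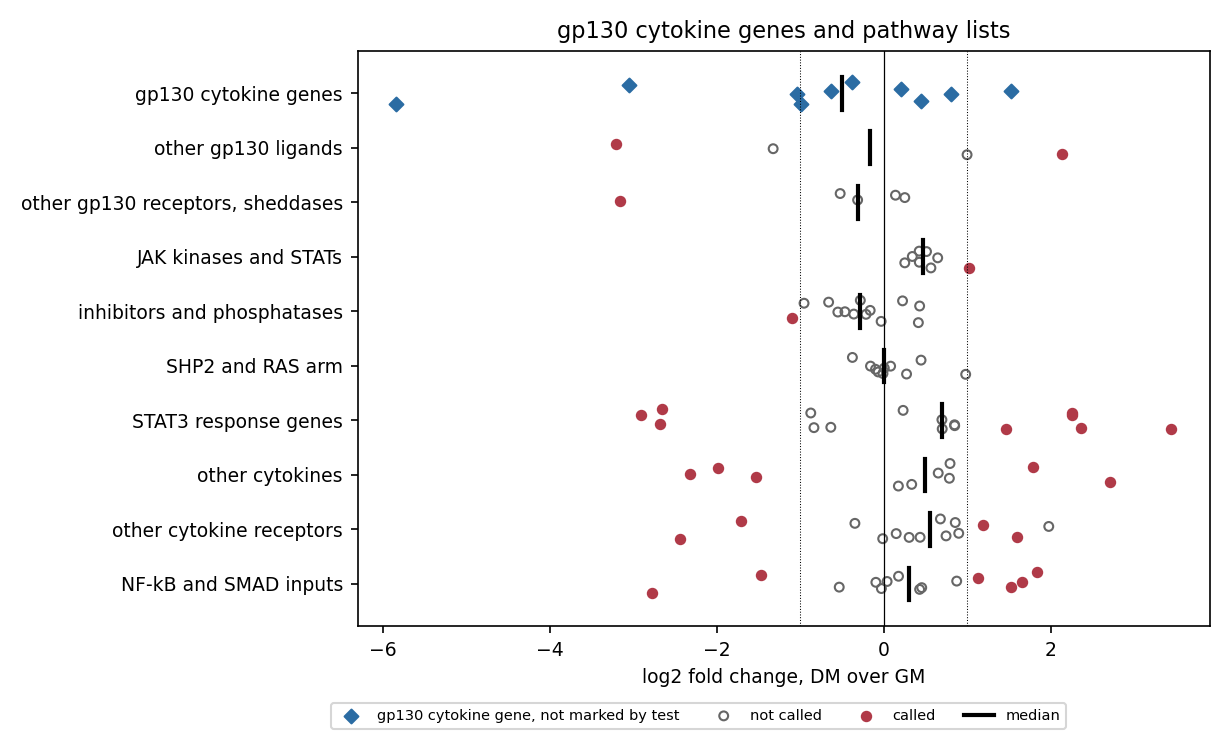
Log2 fold change (DM over GM, horizontal axis) of the 10 gp130 cytokine genes (diamonds, not marked by test) and of each tested gene in the 9 pathway lists, filled where called by edgeR and open where not, with the list median as a black bar and dotted lines at -1 and 1. IL11 lies farthest to the left at -5.84, and the JAK and STAT genes lie to the right of 0.

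The culture label was checked against cell type markers in the same samples. Myogenic markers were present, with DES at 1052 RPKM in GM and 887 RPKM in DM samples. Of 8 tested 4 were called higher in DM samples, MYOG, MYH3, ACTA1 and CKM, at log2 fold changes of 1.66, 2.58, 3.14 and 6.32. Called lower was 1, MYF5, at -2.70, and the groups overlapped for DES. PAX7 had 774, 762 and 702 counts in GM and 415, 400 and 226 in DM samples (log2 fold change -0.92). MYOD1 was higher in every DM sample (0.90), and neither PAX7 nor MYOD1 passed the limit of 1. Fibroblast markers were abundant as well. Their 6 genes summed to 3863 to 3869 RPKM in GM and 10102 to 11483 RPKM in DM samples, and 5 of 6 were called higher. COL1A1 carried most of this sum, at a mean of 3340 RPKM in GM and 9044 RPKM in DM samples. PDGFRA, at a log2 fold change of 0.58, was not called. The proliferation markers MKI67, TOP2A, PCNA and CDK1 all fell, from a sum of 244 to 258 RPKM in GM to 55.3 to 75.7 RPKM in DM samples. Immune markers summed to 3.43 to 6.04 RPKM over the 6 samples, with PTPRC, which defines leukocytes, at no more than 2 counts in any sample. Of 4 tested 1 was called higher and 1 lower in DM samples. CD14 was called higher, from 54, 45 and 34 counts to 335, 274 and 177. CD68 was called lower, from 237, 231 and 175 counts to 105, 95 and 76. Endothelial, adipocyte and Schwann cell markers summed to at most 1.18, 0.961 and 1.5 RPKM in any sample, with PECAM1, ADIPOQ and SOX10 at no more than 8, 14 and 7 counts. Some other genes of these lists had more counts, with KDR at 16 to 55 and S100B at 39 to 72. Of the endothelial genes 1, TEK, was called higher, from 65, 65 and 48 counts to 141, 133 and 177. CDH5 was called lower, though its groups overlapped. Of the adipocyte genes 1, FABP4, was called higher, with at most 16 counts in any sample. Of 2 tested Schwann cell genes 0 were called by edgeR or DESeq2, with 0 at an unadjusted p-value under 0.05. Of the smooth muscle and pericyte markers 0 of 4 tested were called by edgeR, and 0 by DESeq2, while 2 had an unadjusted p-value under 0.05. ACTA2 carried their sum of 554 to 711 RPKM. Fibroblast, myogenic and proliferation markers differed along with IL11, LIF and IL11RA across the same samples, and their part in these differences was not tested. In such bulk samples fewer cells of a type and less RNA per cell cannot be told apart. DM replicate 3 differed more from the other DM samples than these did from each other. Without it the log2 fold changes were -5.8 for IL11, -3.2 for LIF, 1.5 for IL11RA and -1.0 for CLCF1.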

How the data were processed

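Polyadenylated RNA of 3 GM and 3 DM samples was sequenced. The authors deposited counts per gene and transcript, with RPKM computed from them and the gene lengths. The methods name HISAT2 and a buffalo genome, whereas the deposited tables list cattle Ensembl identifiers without a build and the submitters' processing notes name Bowtie 0.12.2, mm8 and mm9. The counting tool and its strand setting are not given in the sources used here. The authors' lists of fold changes, p-values and q-values, and the table of noncoding RNA, were not used. The number of sample columns left unmapped was 0.

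Genes with at least 10 counts over the 6 samples were fitted by edgeR 4.0.16 (R 4.3.3, TMM, quasi-likelihood test, Benjamini-Hochberg adjustment over all tested genes), with DESeq2 1.42.0 as an alternative. Standard errors are the absolute log2 fold change divided by the square root of the F statistic of the quasi-likelihood test. The fit was tested on simulated data. Tables were handled with pandas 2.3.3 in Python 3.11.15. The 10 genes, the pathway and marker lists and the tests were chosen with earlier results of these data known. In each pathway list the text names up to 4 called genes with the largest fold change among those of at least 1 RPKM in a group, and the 2 most abundant genes not called. Some genes that this rule selects are not reported here. Near genes were the 3 closest to IL11 and to LIF. The alternatives were another test, other scalings, other filters on low counts, no minimum fold change, the replicate number as a block and leaving out each sample.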

Additional observations from a re-analysis of the deposited data

How the results depend on the processing

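Of 120 recomputed log2 fold changes of the 10 genes, 118 moved by less than the spread between replicates, and the others were OSMR at 0.34 and STAT3 at 0.71, both with library size alone. With library size alone the median over all genes was -0.07 on the log2 scale against 0.03, and its calls were 52.8% higher in DM samples against 59.2% with TMM. It gave 0 calls among JAK and STAT genes and 2 among inhibitors. With no minimum fold change there were 9813 calls over the 15576 tested genes and 69 over the 94 of the pathway lists. Among these were 3 in receptors and sheddases, 7 in JAK and STAT genes, 9 in inhibitors and 4 in the SHP2 arm. STAT3 response genes had 16, other cytokines 8, other receptors 10 and NF-κB, AP-1 and TGF-β genes 10. The cause of these moves is the removed limit itself. Leaving out 1 sample gave 1 to 2 calls among inhibitors and 0 to 1 in the SHP2 arm. It left 3 to 5 transcripts of the 10 genes past a log2 fold change of 1 in either direction, a count of sizes with no test. Of 441 recomputed fold changes of the genes chosen from the pathway lists by the naming rule 436 kept their direction and their call. Genes named after their values were seen are not in this count. Of those, PRLR, NFKBIA, FGB, SOCS2 and GAB1 changed their call in some settings. With 1 sample left out PIAS3 lay between -0.16 and 0.10 and CXCL12 between -0.11 and 0.35, each with both signs, and the cause was not tested. SOCS2, at -0.96, was also called with library size alone and, at -1.01, without DM replicate 1 and without DM replicate 2. LEPR was called without DM replicate 3 at 2.37, and TGFB3, at 0.88, without DM replicate 2.

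With the replicate number as a block edgeR called 3837 genes, 28 pathway genes and 3 of the 10 genes, a last count from which nothing is read. Deviations of same-numbered GM and DM samples correlated at -0.00756, -0.0218 and -0.0105 across genes. Those of differently numbered samples correlated at -0.0121 to 0.0238. With 3 samples per group these values cannot tell whether same-numbered samples share an origin, which is not given. Low counts limit IL6, CNTFR and IL15, and also CTF1, IL27, CNTF, CXCL8, IL1A, PRLR and FGB.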
